A study of Homo sapiens with 15 samples.

Results

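The human proteasome genes were examined in 15 RNA-seq libraries of the melanoma line MelJuSo, which had been engineered to carry dCas12a, in 12 of the libraries with transcriptional activation domains. Members were all protein-coding genes of the deposited annotation whose symbol begins with PSMA, PSMB, PSMC, PSMD, PSME, PSMF or PSMG. The rule found 49 genes of 58721 in all. Of these, 48 encode proteasome subunits, activators, an inhibitor or assembly chaperones. The remaining gene, PSMC3IP, shares only the letters of the symbol and encodes a factor of meiotic recombination. After the filter on low counts, 47 members were tested. The testis subunit PSMA8 had 0 counts in all 15 libraries. The thymus subunit PSMB11 had 0 counts except for 1 read in 1 library of the p65 line without guides. Such a 0 is read against a floor of 3 counts, which came to 0.13 to 0.192 CPM (counts scaled to the library total) and covers counting error only.

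The proteasome degrades proteins tagged with ubiquitin. Its barrel-shaped core, the 20S particle, stacks rings of alpha subunits (PSMA) around rings of beta subunits (PSMB), and the proteolytic sites sit on the beta subunits PSMB6 (beta1), PSMB7 (beta2) and PSMB5 (beta5). The 19S regulatory particle, made of ATPases (PSMC) and other subunits (PSMD), binds, unfolds and feeds the substrates. Cells exposed to interferon gamma replace the catalytic subunits by PSMB9 (beta1i), PSMB10 (beta2i) and PSMB8 (beta5i), which form the immunoproteasome, and raise PSME1 and PSME2, the subunits of the PA28 alpha-beta activator. The immunoproteasome changes which peptides are cut and is known for supplying ligands to MHC class I. PSME3 forms a nuclear PA28 activator, PSME4 (PA200) is another cap of the core, PSMF1 (PI31) binds and inhibits the core, and the PSMG proteins help to assemble it.

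The libraries came from 5 engineered MelJuSo lines with 3 libraries each, lettered A, B and C, made from total RNA of confluent cells. dCas12a is a Cas12a protein that binds DNA without cutting it, and here it carried the 5xALFA peptide tag, which an ALFA nanobody binds. The VP64 line expressed 5xALFA-dCas12a-VP64 with nanobody-VP64, and the p65 line expressed 5xALFA-dCas12a-VP64 with nanobody-p65, so that both lines carry VP64 on dCas12a. VP64 is built from repeats of a herpesvirus activation domain, and p65 is the activation domain of an NF-kB subunit. Each of these lines was grown with or without a cassette of 3 guides that target CD4. The control line expressed 5xALFA-dCas12a and the nanobody with no activation domain and no guides. There was no line with guides to another target, so an effect of guides and a difference between separately made lines cannot be told apart. The control line differs from the others both in the dCas12a fusion and in the nanobody. The labels say neither whether a line is 1 clone nor whether its 3 libraries came from separate cultures, and the p-values therefore cover only the variation among the libraries, which may be technical. In these bulk samples, fewer cells expressing a gene and less RNA per cell cannot be told apart.

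Depth was 15643705 to 23072512 counts per library, of which the members took 0.7134 to 0.7801%. The targeted gene, CD4, lay between 900 and 953 TPM (transcript abundance scaled to length and to the library total) in the VP64 line with guides and between 938 and 1040 TPM in the p65 line with guides. It lay between 3.94 and 5.61 TPM in both lines without guides and between 0.53 and 2.16 TPM in the control line. Of 9 melanocyte lineage genes, SOX10 had group means of 131 to 218 TPM, whereas MLANA was below 1 TPM in every library. The summed level of these 9 genes differed between the groups: 403 to 477 TPM in the VP64 line with guides, 285 to 374 TPM in the p65 line with guides, 214 to 234 and 191 to 210 TPM without guides, and 217 to 224 TPM in the control line. Summed leukocyte markers (9 genes) reached 5.69 to 6.88, 6.21 to 10.7, 4.19 to 6.58, 5.31 to 9.47 and 12.4 to 13.8 TPM in the same order, with CD3D and MS4A1 at 0 in every library and CD3E and NKG7 below 1 TPM. Summed fibroblast markers (5 genes) reached 6.27 to 7.57, 10.1 to 12.1, 3.44 to 5.21, 3.84 to 8.38 and 2.65 to 4.08 TPM, with PDGFRB below 1 TPM. The part of these markers in the proteasome results was not tested.

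TPM scales counts by transcript length and allows levels to be compared between genes. By this measure the immunoproteasome genes were the low end of the catalytic subunits. Over the 15 libraries the median level was 75.9 TPM for PSMB8, 57.6 TPM for PSMB9 and 30.4 TPM for PSMB10, against 244 TPM for PSMB5, 300.3 TPM for PSMB6 and 515 TPM for PSMB7. For each of these 3 positions the highest library of the inducible gene lay below the lowest library of its constitutive counterpart. PSMD2, the scaffold subunit RPN1 of the 19S base, had the highest median of all members, 830.5 TPM with a range of 727.5 to 1024 TPM. PSMA7 (577 TPM) and PSMB7 (515 TPM) followed, and their ranges overlapped (538 to 606 TPM and 478 to 545 TPM). The median was 278 TPM for PSME2, 190 TPM for PSME3 and 139 TPM for PSME1. Over the libraries PSME2 overlapped PSME3 and PSME3 overlapped PSME1, whereas PSME2 lay above PSME1 throughout. At the low end stood PSMG4 with 36.8 TPM, PSMB10 with 30.4 TPM, PSMD5 with 30.2 TPM and PSME4 with 24.1 TPM, whose ranges overlapped. PSMD5, a chaperone of the 19S base, reached 95.9 TPM in library A of the p65 line with guides, whereas the lowest of its 15 libraries was at 26.0 TPM. Its count there, 1277, was inside the range of the other libraries (954 to 1714), and its deposited effective length was 902 bases against 2073 to 3083 bases elsewhere.

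The summed level of the 48 proteasome genes was close in all groups. It was 9832 ± 141 TPM (SD, n = 3) in the VP64 line with guides and 10130 ± 191 TPM without them. It was 10010 ± 182 TPM in the p65 line with guides and 10040 ± 245 TPM without them, and the control line had 9853 ± 54.5 TPM. The 3 immunoproteasome catalytic genes together had 207 ± 9.41 TPM and 183.2 ± 11.8 TPM (SD, n = 3) in the VP64 and p65 lines with guides. They had 159.1 ± 4.99 TPM and 161 ± 5.29 TPM in the same lines without guides and 152.9 ± 3.21 TPM in the control line. The 3 constitutive catalytic genes had 1066 ± 6.43, 1089 ± 31.8, 1058 ± 31.1, 1038 ± 41.1 and 992.6 ± 6.27 TPM in the same order.

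The inducible genes lie at few places in the genome (hg38). PSMB8 (ENSG00000204264.9, chromosome 6, 32840717 to 32844703, minus strand) and PSMB9 (ENSG00000240065.7, chromosome 6, 32844136 to 32859585, plus strand) are neighbours in the MHC class II region and overlap each other. Both overlap the noncoding gene PSMB8-AS1, which is antisense to PSMB8 and on the same strand as PSMB9. PSMB9 also overlaps TAP1, on the opposite strand. PSMB10 (ENSG00000205220.11) lies on chromosome 16, 67934502 to 67937087, minus strand, and overlaps AC040162.1 on the same strand. PSME1 (ENSG00000092010.14, chromosome 14, 24136158 to 24138967, plus strand) and PSME2 (ENSG00000100911.15, chromosome 14, 24143362 to 24147570, minus strand) are close neighbours. PSME1 overlaps EMC9, and PSME2 overlaps RNF31 and MIR7703. The sources used here do not say whether the counting used strand, so reads of such overlapping genes may have been shared. For genes on the same strand, such as PSMB9 and PSMB8-AS1, strand alone would not separate the reads. Of the constitutive counterparts, PSMB6 (chromosome 17, 4796144 to 4798503) and PSMB7 (chromosome 9, 124353466 to 124415444) overlap no annotated gene, and PSME3 (chromosome 17, 42824385 to 42843758) overlaps BECN1.

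Promoter sequence was available from RefSeq (GRCh38.p14) for 43 members. Of these, 9 had several starts, and a gene was counted once if any of its windows held a match. The 250 bases before each start were searched on both strands for an interferon-stimulated response element, which is spelled TTTCNNTTTC and which interferon regulatory factors bind. This motif was in 5 of the 43 members (11.6%) and in 3.71% of all 27303 genes with a promoter, counted in the same way. The 5 matches are shown because 2 of them are at genes of the inducible set, PSMB10 and PSME2, and 2 others, PSMB4 and PSMG4, are at genes that rose with guides in at least 1 line. The other inducible genes, PSMB8, PSMB9 and PSME1, had no match, and PSMA4, which had one, was called with guides in neither line. Capitals mark the match, which in each case is on the strand opposite to the gene while the printed sequence runs 5′ to 3′ in the gene's direction.
PSMB10: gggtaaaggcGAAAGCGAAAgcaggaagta
PSME2: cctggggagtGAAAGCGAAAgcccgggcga
PSMB4: tcgtctacagGAAAAAGAAAgaaatgacac
PSMG4: ttccggggccGAAAGCGAAAgcgcgctcgg
PSMA4: atagtgaagaGAAAATGAAAggagagcgcc
Positions count from the transcript start in the RefSeq table, which in PSMB10, PSME2 and PSMG4 lies 237, 960 and 27544 bases inside the gene span of the deposited annotation, because that span begins at a longer transcript. By this count the match lies at -21 to -12 in PSMB10 (chr16:67936852-67936881, minus strand), at -28 to -19 in PSME2 (chr14:24146619-24146648, minus strand) and at -33 to -24 in PSMG4 (chr6:3258904-3258933, plus strand). It lies at -68 to -59 in PSMB4 (chr1:151399495-151399524, plus strand) and at -240 to -231 in PSMA4 (chr15:78540155-78540184, plus strand). In PSMB10, PSME2 and PSMG4 the matched letters were the same, GAAAGCGAAA.

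The core of the antioxidant response element, spelled TGACNNNGC and bound by NFE2-type factors such as NFE2L1, the regulator of proteasome genes, was in 13 members (30.2%) and in 13.2% of all genes. Among the inducible genes it was in PSMB9, PSME1 and PSME2. The stretches before the RefSeq starts of PSMB9 (chr6:32853979-32854147, plus strand) and PSME1 (chr14:24135944-24136157, plus strand) are shown because these genes rose with guides in both lines, with the match in capitals. The RefSeq start of PSMB9 lies 10056 bases inside the annotated gene span, which begins at a longer transcript. The stretches hold no base of an annotated exon, and in PSMB9 the match is on the opposite strand.
PSMB9: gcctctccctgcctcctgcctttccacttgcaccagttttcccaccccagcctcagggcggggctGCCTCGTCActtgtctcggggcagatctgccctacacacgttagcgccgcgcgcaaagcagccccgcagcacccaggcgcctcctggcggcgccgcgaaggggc
PSME1: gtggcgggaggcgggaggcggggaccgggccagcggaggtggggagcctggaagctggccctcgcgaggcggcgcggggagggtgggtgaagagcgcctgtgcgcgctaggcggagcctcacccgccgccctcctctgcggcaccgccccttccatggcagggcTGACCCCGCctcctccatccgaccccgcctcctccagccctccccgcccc
The gamma-activated site, spelled TTCNNNGAA, was in 7 members (16.3%, against 8.09% of all genes), among them PSMB8, PSMB5 and PSME3. The NF-Y box, CCAAT, was in 20 members (46.5% against 37.0%), and the NF-kB (kappaB) motif in PSMA4 and PSMA8 (4.65% against 11.8%). These matches describe letters in a window and do not show binding.

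With the CD4 guides, PSMB9, PSME1 and PSME2 rose in both lines. PSMB9 was 61.5% higher in the VP64 line and 44.5% higher in the p65 line, while the constitutive catalytic genes PSMB5, PSMB6 and PSMB7 passed the test in neither. In the VP64 line 6 of 47 members rose (12.8%), against 19.3% of all 14961 genes tested, and 14 fell (29.8%), against 21.3% of all genes. For the p65 line the counts were 6 higher (12.8%) against 18.7% of all genes, and 9 lower (19.1%) against 20.2% of all genes. Calls are an adjusted p under 0.05 by edgeR's quasi-likelihood test with Benjamini-Hochberg adjustment over all genes tested. No member changed by 2-fold or more in any comparison of the study, called or not. Of all genes tested, 459 and 391 were both called and changed by 2-fold or more with guides in the VP64 and p65 lines. The median size of the log2 fold change was 0.112 and 0.081 for members, against 0.216 and 0.206 for all genes. The 5 inducible genes had a median log2 fold change of 0.43 in the VP64 line and 0.38 in the p65 line, and the other 42 members had medians of -0.067 and -0.037. Of the inducible genes, 4 rose and 0 fell in the VP64 line, and 3 rose and 0 fell in the p65 line. Of the other 42, 2 rose and 14 fell in the VP64 line, and 3 rose and 9 fell in the p65 line. The 14 decreases in the VP64 line came down to 8 without its library A without guides and to 9 without its library C with guides, and the 9 in the p65 line to 5 without its library B with guides. The 6 increases in the p65 line became 10 when only genes averaging at least 1 CPM were kept.

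PSMB9, the inducible beta1 subunit, stood at 92.7, 96.1 and 83.2 TPM in libraries A, B and C of the VP64 line with guides and at 56.7, 57.6 and 53.2 TPM without them. All 3 libraries with guides were above all 3 without. On the log2 scale PSMB9 was higher by 0.69 (SE 0.078, adjusted p = 2.93e-07). The p65 line had PSMB9 at 79.4, 84.7 and 72.6 TPM with guides and at 58.1, 53.1 and 56.3 TPM without. The groups did not overlap here either, and the log2 fold change was 0.53 (SE 0.078, adjusted p = 1.07e-05). Behind these values were 454 to 655 and 513 to 530 counts per library with guides and 350 to 454 without.

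PSMB8, the inducible beta5 subunit, shares its locus with PSMB9 but passed the test in neither line. It stood at 91.7, 81.7 and 81.8 TPM in the VP64 line with guides and at 74.9, 78.7 and 75.6 TPM without. The groups did not overlap, yet the log2 change of 0.12 (SE 0.059) had an adjusted p of 0.112. Without library C of the VP64 line with guides PSMB8 passed the test, with a log2 fold change of 0.17 and an adjusted p of 0.0438. Its p65 values were 80.6, 79.3 and 73.4 TPM with guides and 77.7, 71.7 and 75.9 TPM without, and these ranges overlapped. The log2 fold change was 0.055 (SE 0.059, adjusted p = 0.505).

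PSMB10, the inducible beta2 subunit, rose in the VP64 line with a log2 change of 0.45 (SE 0.115, adjusted p = 0.00302). Its TPM values were closer than this: 30.0, 32.5 and 31.5 TPM with guides and 25.3, 28.5 and 26.8 TPM without. The groups did not overlap, but the deposited effective length of the gene was 475 to 540 bases with guides and 403 to 450 bases without. With an offset for the effective length the log2 fold change was 0.22 and the call was lost (adjusted p = 0.333). The p65 line had PSMB10 at 21.4, 31.8 and 26.4 TPM with guides and at 24.8, 31.0 and 34.3 TPM without, with overlapping groups. The log2 fold change of counts was 0.16 (SE 0.115, adjusted p = 0.299), whereas the effective-length offset gave -0.163. PSMB10 had 160 to 271 counts in the libraries of these groups, the fewest of the 3 inducible catalytic genes.

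**Figure D1:**
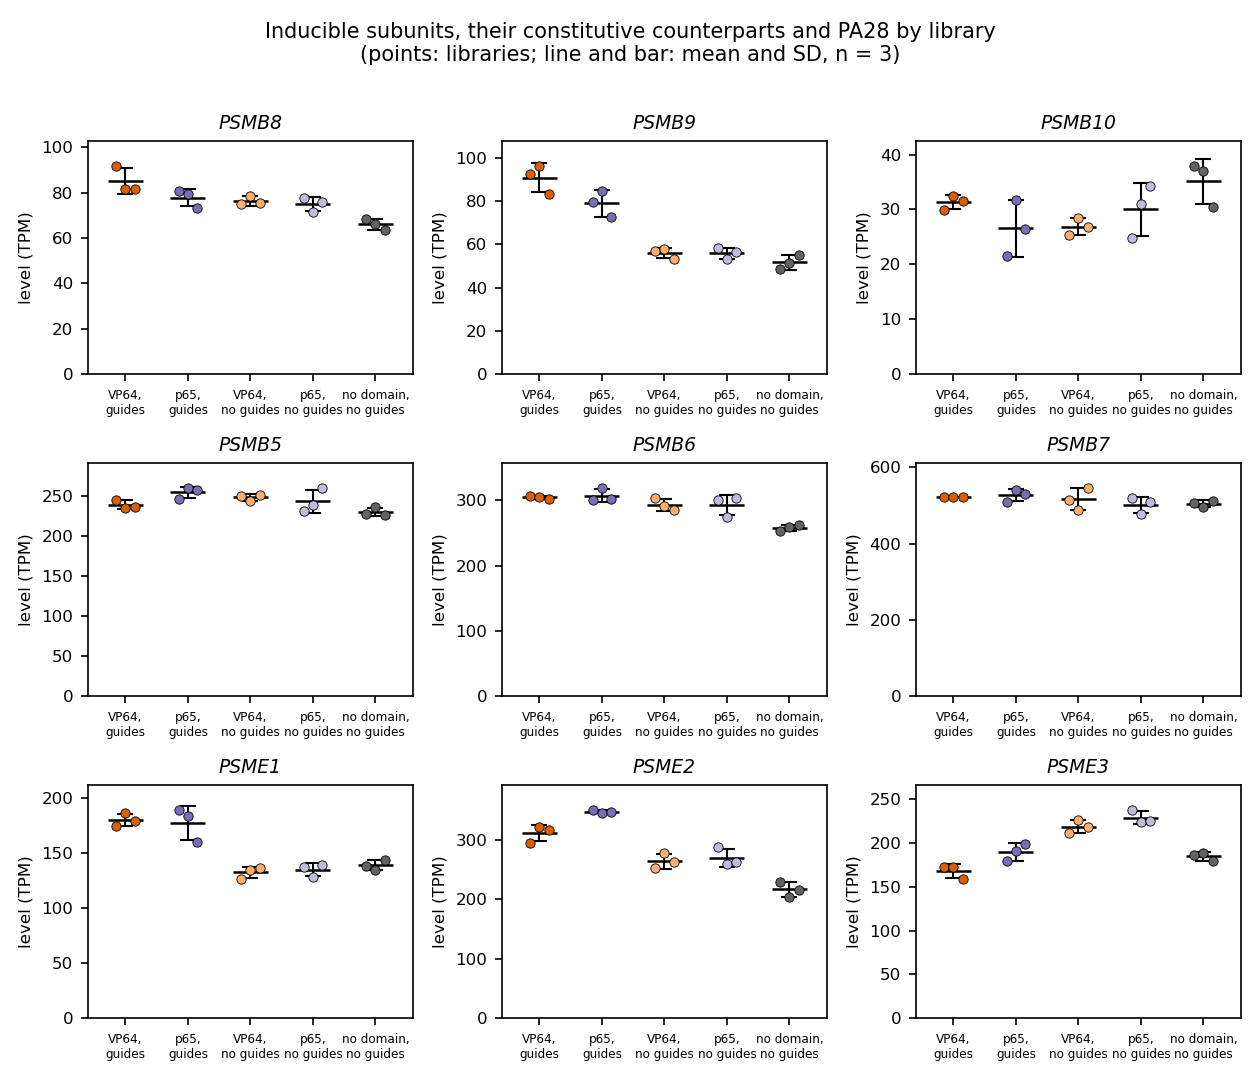
TPM of PSMB8, PSMB9, PSMB10, of the constitutive catalytic genes PSMB5, PSMB6 and PSMB7, and of PSME1, PSME2 and PSME3 by group. Points are libraries, lines and bars are the mean and SD of 3 libraries, and the libraries with guides lie above those of the same line without guides for PSMB9, PSME1 and PSME2 and below them for PSME3.

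PSME1 and PSME2, the alpha and beta subunits of PA28, rose in both lines. PSME1 stood at 175, 186 and 179 TPM in the VP64 line with guides and at 127, 134 and 137 TPM without. The p65 values were 189, 184 and 160 TPM with guides and 137, 128 and 139 TPM without. The groups did not overlap in either line, and the log2 fold changes were 0.43 (SE 0.053, adjusted p = 1.19e-06) and 0.42 (SE 0.053, adjusted p = 1.26e-06). PSME2 stood at 295, 322 and 317 TPM in the VP64 line with guides and at 253, 278 and 262 TPM without. PSME2 in the p65 line had 350, 345 and 347 TPM with guides and 288, 260 and 263 TPM without. The libraries with guides were again all higher, by a log2 change of 0.23 (SE 0.042, adjusted p = 0.000124) and 0.38 (SE 0.041, adjusted p = 2.07e-07).

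PSME3, the nuclear PA28 subunit, moved the other way. It stood at 172, 172 and 159 TPM in the VP64 line with guides and at 211, 226 and 218 TPM without. Its levels in the p65 line were 179, 190 and 199 TPM with guides and 237, 224 and 224 TPM without. Every library with guides was below every library of the same line without, and the log2 fold changes were -0.41 (SE 0.04, adjusted p = 3.98e-08) and -0.33 (SE 0.04, adjusted p = 8.75e-07). The control line, which also has no guides, stood at 179 to 189 TPM. It overlapped the p65 line with guides and lay above the VP64 line with guides. PSME4 fell in both lines as well, by 0.23 and 0.16 on the log2 scale (adjusted p = 0.00246 and 0.0224), although its TPM groups in the VP64 line overlapped (22.3, 22.7 and 24.5 TPM with guides, 23.1, 24.7 and 24.4 TPM without). Its calls were lost with the effective-length offset (adjusted p = 0.51 and 0.0789), and in the p65 line also without library A or B with guides or library A without. PSMF1 did not pass the test in either line.

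The constitutive catalytic genes were close with and without guides. PSMB5 (beta5) had 239.4 ± 5.63 TPM with guides and 248.8 ± 4.22 TPM without in the VP64 line, a log2 change of -0.059 (SE 0.047, adjusted p = 0.339). The p65 line had 254.9 ± 7.45 and 243.8 ± 14.7 TPM, and the log2 fold change there was 0.11 (SE 0.046, adjusted p = 0.0734). PSMB6 (beta1) had log2 fold changes of 0.053 (SE 0.045) and 0.095 (SE 0.044), with adjusted p of 0.367 and 0.0964. PSMB7 (beta2) had 0.028 (SE 0.038) and 0.081 (SE 0.038), with adjusted p of 0.598 and 0.0974. None of these 6 values passed the test. For the p65 line, however, all 3 genes passed when only genes averaging at least 1 CPM were kept, with adjusted p of 0.0365 for PSMB5, 0.0483 for PSMB6 and 0.0476 for PSMB7. Without library C of the p65 line without guides PSMB5 (0.00414) and PSMB6 (0.0315) passed as well, and DESeq2 called PSMB5 (0.042) and PSMB7 (0.046).

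The share of each position taken by the inducible gene, from TPM, put these changes side by side. At beta1, PSMB9 made up 23.2, 23.9 and 21.6% of the sum of PSMB9 and PSMB6 in the VP64 line with guides and 15.7, 16.5 and 15.7% without. The p65 shares were 20.9, 21.0 and 19.4% with guides and 16.2, 16.2 and 15.7% without. The groups were apart in both lines, and the control line, at 16.67 ± 0.671% (SD, n = 3), lay at the level of the lines without guides. At beta5, PSMB8 made up 26.2 ± 0.848% in the VP64 line with guides and 23.49 ± 0.768% without, and 23.39 ± 1.26% and 23.58 ± 1.36% in the p65 line. At beta2, PSMB10 made up 5.664 ± 0.214% and 4.967 ± 0.483% in the VP64 line with and without guides, and 4.774 ± 0.757% and 5.664 ± 0.953% in the p65 line. For PA28, PSME1 and PSME2 together made up 74.53 ± 1.28% of the sum with PSME3 in the VP64 line with guides and 64.52 ± 0.221% without, and 73.46 ± 1.62% and 63.92 ± 0.472% in the p65 line. In the control line the beta5, beta2 and PA28 shares were 22.3 ± 0.733%, 6.513 ± 0.78% and 65.83 ± 1.38%. The beta2 mean of the control line was thus the highest of the 5 groups. These shares are ratios of RNA levels and carry no test of their own, and the beta1, beta2 and PA28 shares were lower in every group when counts were not scaled by length.

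**Figure D2:**
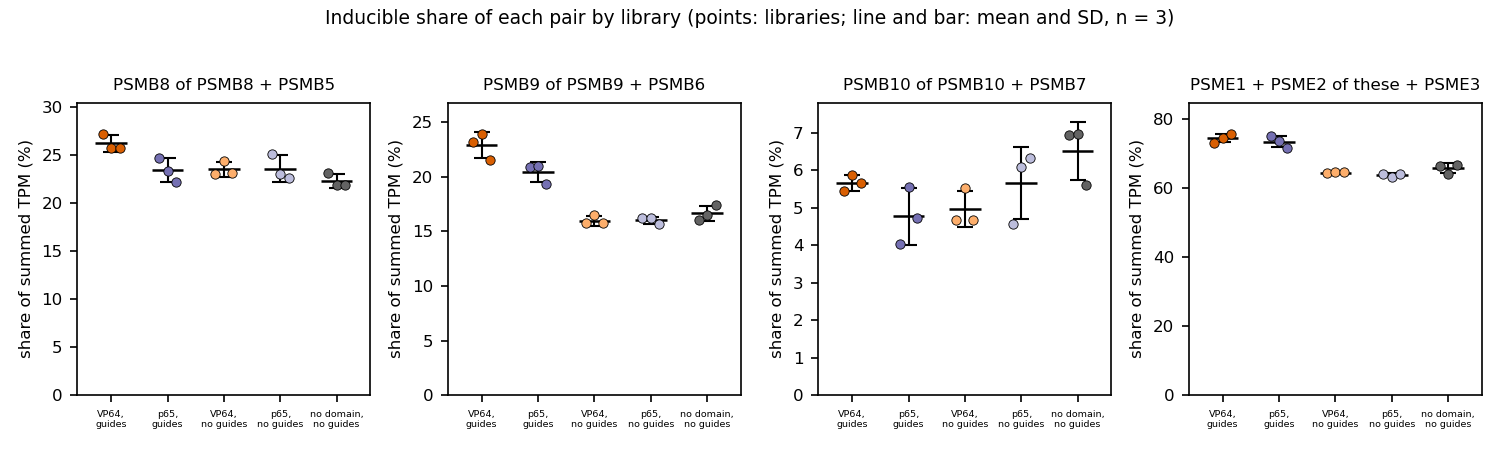
Share of TPM (percent) taken by the inducible gene at the beta5, beta1 and beta2 positions and by PSME1 and PSME2 against PSME3, by group, with points for libraries and lines and bars for the mean and SD of 3 libraries. The beta1 share is 19.4 to 23.9% with guides and 15.7 to 17.4% in the groups without, and the PA28 share is 71.8 to 75.8% with guides and 63.4 to 66.8% without.

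Among the other 20S genes, PSMB4 (beta7), a structural subunit without a proteolytic site, rose in both lines. It stood at 477, 488 and 462 TPM in the VP64 line with guides and at 408, 401 and 402 TPM without. In the p65 libraries PSMB4 had 454, 447 and 444 TPM with guides and 400.2, 387 and 410.3 TPM without. Neither pair of groups overlapped, and the log2 fold changes were 0.23 (SE 0.038, adjusted p = 2.87e-05) and 0.20 (SE 0.038, adjusted p = 0.00022). PSMB3 (beta3) rose in the p65 line by 0.14 log2 units (SE 0.044, adjusted p = 0.012) and had 0.10 (SE 0.044, adjusted p = 0.0752) in the VP64 line. The difference between the lines in this effect was 0.043 (SE 0.062, adjusted p = 0.874). The call for PSMB3 was lost without library B of the p65 line with guides (adjusted p = 0.081), without library A of the p65 line without guides (0.0523) and with the effective-length offset (0.099). Of the 7 alpha-ring genes tested, PSMA5 fell in the VP64 line (log2 fold change -0.174, adjusted p = 0.00479) and PSMA3 in the p65 line (-0.137, adjusted p = 0.0441), and both calls were lost when single libraries were left out (highest adjusted p 0.065, without library C with guides or A without guides, and 0.225). All 7 lay between -0.174 and -0.027 in the VP64 line and between -0.137 and 0.049 in the p65 line.

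In the 19S particle, calls in the VP64 line were mostly decreases. Over all genes tested, 21.3% fell and 19.3% rose in the VP64 line, and 20.2% fell and 18.7% rose in the p65 line. Of 6 ATPase genes, PSMC1, PSMC3 and PSMC4 fell in the VP64 line, within a range of all 6 of -0.147 to 0.079 on the log2 scale, and none was called in the p65 line. Without single libraries these 3 calls were lost in 6, 3 and 4 of the 6 fits, with an adjusted p of up to 0.146, 0.105 and 0.262. Of 11 further 19S subunit genes, 6 fell in the VP64 line (PSMD2, PSMD6, PSMD11, PSMD12, PSMD13 and PSMD14) and PSMD7 rose, while 3 fell in the p65 line (PSMD2, PSMD12 and PSMD14). PSMD2 stood at 822, 739 and 742 TPM in the VP64 line with guides and at 1006, 915 and 1024 TPM without. These libraries did not overlap, and the log2 fold change was -0.37 (SE 0.045, adjusted p = 8.97e-07). With the p65 nanobody PSMD2 stood at 727, 822 and 830.5 TPM with guides and at 844, 827 and 833 TPM without, with overlapping ranges, a log2 change of -0.118 (SE 0.045) and an adjusted p of 0.0434. The p65 call was lost in 4 of the 6 fits that left out 1 library (A or B with guides, B or C without) and with the effective-length offset (adjusted p = 0.577). PSMD12, a scaffold subunit of the 19S lid, stood at 178, 195 and 176 TPM in the VP64 line with guides and at 240.5, 229 and 234 TPM without. The p65 levels of PSMD12 were 186, 206 and 228 TPM with guides and 276, 248 and 238 TPM without. The groups were apart in both lines, with log2 fold changes of -0.33 (SE 0.052, adjusted p = 2.7e-05) and -0.27 (SE 0.052, adjusted p = 0.000279). PSMD14, the lid enzyme that removes ubiquitin from substrates, fell by 0.12 and 0.13 on the log2 scale (adjusted p = 0.0128 and 0.00845), and its VP64 call was lost in 4 of 6 such fits, with an adjusted p of up to 0.0848. PSMD13, a lid subunit, lost its call in 5 of 6. PSMD6, a lid subunit, fell in the VP64 line by 0.147 (adjusted p = 0.0021). PSMD7, another lid subunit, rose there from 132, 129 and 119 TPM without guides to 142, 142 and 134 TPM with them (log2 fold change 0.14, adjusted p = 0.0088), a call that was lost with the effective-length offset (0.0584). The 3 chaperone genes of the 19S base, PSMD5, PSMD9 and PSMD10, passed the test in neither line.

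The 20S assembly chaperones did not move as a group. PSMG1, which pairs with PSMG2 to guide the alpha ring, stood at 51.9, 51.3 and 42.4 TPM in the VP64 line with guides and at 66.0, 71.2 and 72.3 TPM without. PSMG1 levels in the p65 line were 59.4, 58.2 and 53.1 TPM with guides and 74.2, 62.4 and 72.8 TPM without. PSMG1 thus fell in both lines without overlap, by a log2 change of -0.52 (SE 0.065, adjusted p = 1.1e-06) and -0.28 (SE 0.063, adjusted p = 0.00107). PSMG2 fell in the p65 line by 0.18 (SE 0.058, adjusted p = 0.0171) and was not called in the VP64 line, with a difference between the lines of -0.095 (adjusted p = 0.746). Its call was lost without library B of the p65 line with guides (adjusted p = 0.0916) and without library B or C of the p65 line without guides (0.0648 and 0.0616). PSMG4, which pairs with PSMG3 in ring assembly, stood at 40.6, 46.5 and 47.3 TPM in the p65 line with guides and at 30.6, 27.1 and 29.7 TPM without. These groups were far apart, and PSMG4 rose by 49.9% (log2 fold change 0.58, SE 0.091, adjusted p = 2.24e-05). PSMG4 in the VP64 line had 42.7, 37.5 and 42.6 TPM with guides and 35.7, 35.0 and 34.1 TPM without, which did not overlap, but the log2 change of 0.21 (SE 0.091) had an adjusted p of 0.0641. PSMC3IP, the gene that is no proteasome subunit, fell in both lines by 0.40 and 0.34 on the log2 scale (adjusted p = 0.000854 and 0.0031).

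**Figure D3:**
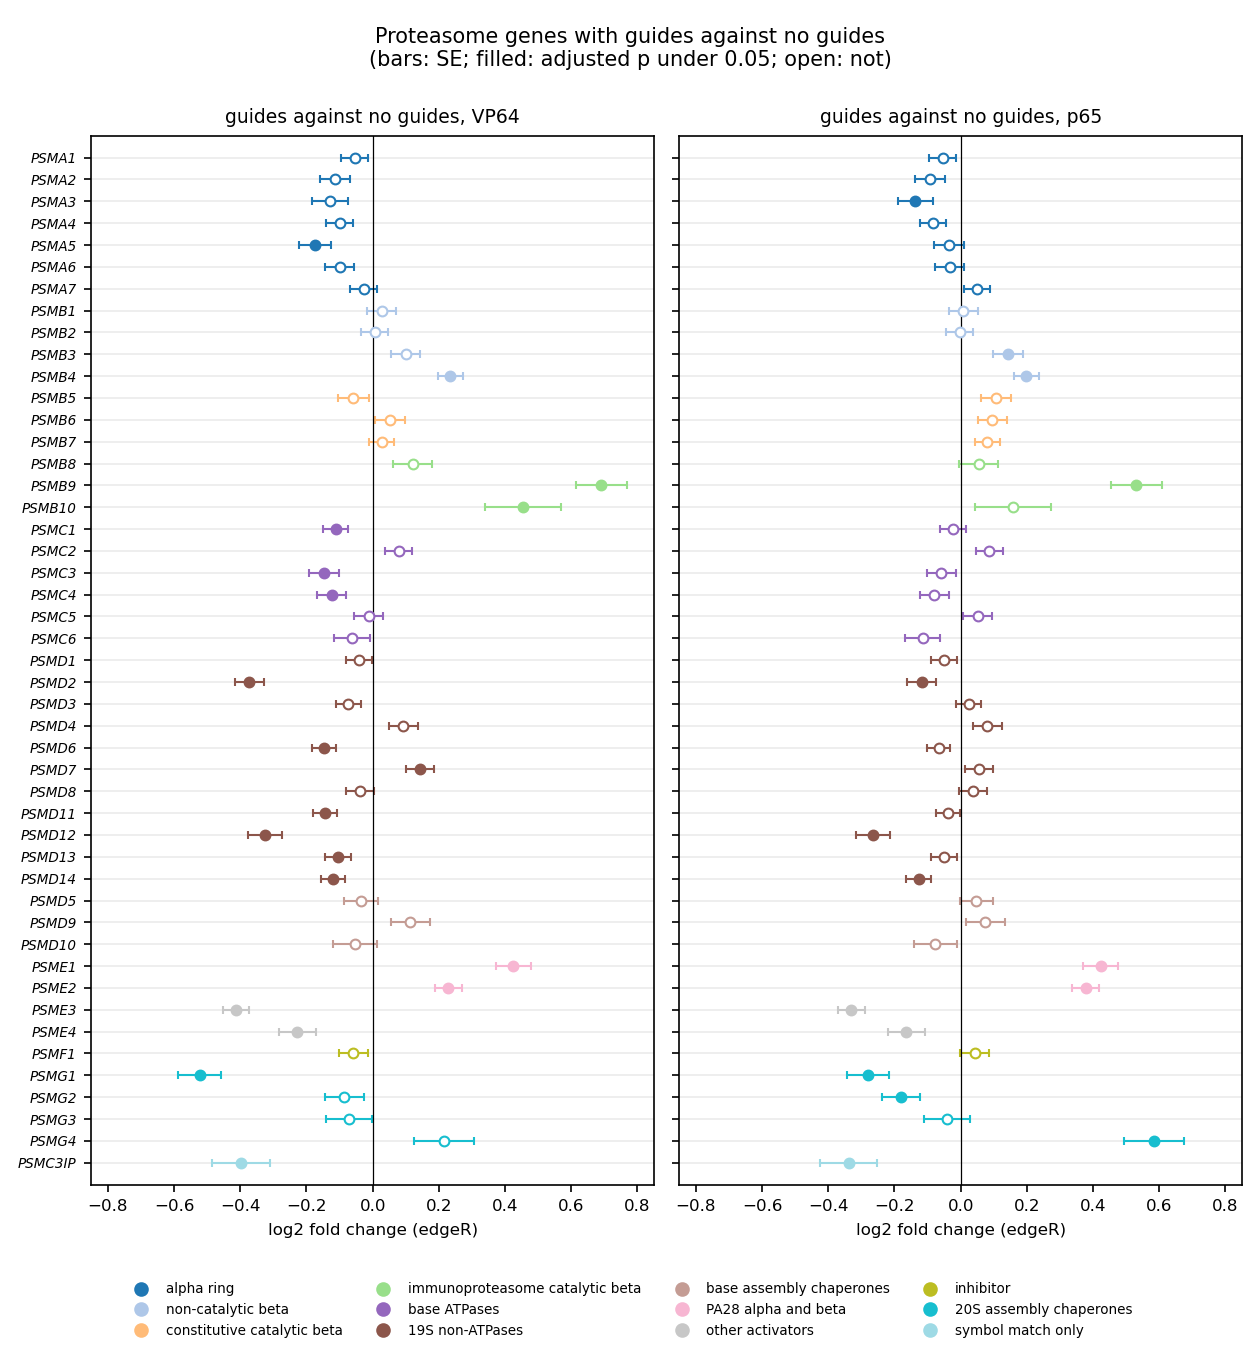
Log2 fold change with guides against without guides for each of the 47 tested members, with bars for the SE, in the VP64 and p65 lines. Filled points have an adjusted p under 0.05: 6 members higher and 14 lower in the VP64 line, 6 higher and 9 lower in the p65 line.

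The guide comparisons of the VP64 and p65 lines share no libraries. Members that rose in both were PSMB4, PSMB9, PSME1 and PSME2, which are 66.7% of the 6 in each line. Over all genes tested, those that rose in both were 71.5% of those that rose in the VP64 line and 73.6% in the p65 line. Members that fell in both were PSMC3IP, PSMD2, PSMD12, PSMD14, PSME3, PSME4 and PSMG1, which are 50% of the 14 in the VP64 line and 77.8% of the 9 in the p65 line, against 74.1% and 78.2% over all genes. PSMB4, PSMB9, PSME1, PSME2, PSME3, PSMD12, PSMG1 and PSMC3IP passed the test in both lines in every fit that left out 1 library and with the effective-length offset. TPM values with and without guides did not overlap for 25 of 47 members in the VP64 line (53.2%, against 40.6% of all genes tested) and for 20 of 47 in the p65 line (42.6% against 39.1%).

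Genes that act with the proteasome gave a mixed picture with guides. Of 24 partner genes (ubiquitin genes, shuttle receptors, deubiquitinases, the assembly factor POMP and the regulator NFE2L1), 4 rose and 8 fell in the VP64 line (16.7% and 33.3%, against 19.3% and 21.3% of all genes), and 5 rose and 5 fell in the p65 line (20.8% each, against 18.7% and 20.2%), with medians of -0.019 and -0.033 on the log2 scale. UCHL5, a deubiquitinase of the 19S particle, fell by 0.40 and 0.42 (adjusted p = 9.49e-07 and 4.97e-07). DDI2, the protease that activates NFE2L1, fell by 0.44 and 0.43 (adjusted p = 6.11e-05 and 4.3e-05). NFE2L1 rose in the p65 line by a log2 fold change of 0.24 (adjusted p = 2.21e-05) and had 0.039 (adjusted p = 0.442) in the VP64 line.

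Of 16 genes of antigen processing and interferon signalling outside the proteasome, 12 rose and 1 fell with guides in the VP64 line (75.0% and 6.25%, against 19.3% and 21.3% of all genes), and 11 rose and 0 fell in the p65 line (68.8% rose, against 18.7% of all genes). Their median log2 fold changes were 0.26 and 0.29. Their summed level was 3540 to 3650 TPM and 3510 to 3630 TPM with guides, and 2860 to 2890 TPM and 2850 to 2930 TPM without. B2M, the light chain of MHC class I, stood at 1386, 1430 and 1439 TPM in the VP64 line with guides and at 1089, 1063 and 1071 TPM without, a log2 change of 0.40 (SE 0.034, adjusted p = 5.07e-09). B2M in the p65 line had 1566, 1510 and 1486 TPM with guides and 1116, 1035 and 1089 TPM without, a log2 change of 0.49 (SE 0.034, adjusted p = 2.02e-10). B2M was thus higher in every library with guides. TAPBP, which loads peptides onto MHC class I, rose by log2 fold changes of 0.64 and 0.56, and IFNGR2, a chain of the interferon gamma receptor, by 0.97 and 0.99 (adjusted p = 1.41e-11 and 8.31e-12). The gene that fell in the VP64 line was TAP2, a subunit of the peptide transporter, by 0.25 on the log2 scale (adjusted p = 5.76e-05). The melanocyte lineage markers moved with the guides too, 6 of 8 tested rising in the VP64 line and 5 of 8 rising with 1 falling in the p65 line. Of 3 fibroblast markers tested 1, COL1A1, rose in both lines, by 0.86 and 1.46 on the log2 scale (adjusted p = 8.14e-05 and 4.16e-08), and 0 fell. Of 4 leukocyte markers tested 0 were called in either line. The part of these markers in the values above was not tested.

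Whether the guide effect differed between the lines was tested as an interaction, p65 minus VP64. By edgeR 0 of 47 members were higher and 0 lower, against 0.769% and 0.187% of all genes, while 6 members had an unadjusted p under 0.05 and DESeq2 called 1, PSMD2. The 6 values were all positive. PSMD2, which fell more in the VP64 line, had a difference of 0.25 (SE 0.064, adjusted p = 0.0624) and passed the test without library A of either line with guides. For PSMB9 the difference was -0.161 (SE 0.11, adjusted p = 0.632), for PSMB10 -0.294 (SE 0.163, adjusted p = 0.522) and for PSME2 0.15 (SE 0.059, adjusted p = 0.295). For PSMB8 it was -0.066 (SE 0.084, adjusted p = 0.853) and for PSME1 -0.002 (SE 0.075, adjusted p = 0.995). A difference in the guide effect on PSMG4, 0.37 (SE 0.129, adjusted p = 0.214), was also not called. No gene of the partner and antigen-processing lists was called for this difference by edgeR, the smallest adjusted p being those of NFE2L1 (0.0718) and TAP2 (0.106).

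The p65 line was compared with the VP64 line directly. By the labels these differ in the domain on the nanobody, but they are also separately made lines, and these cannot be told apart. Without guides 0 of 47 members were higher (0.388% of all genes) and 1 was lower (1.72% of all genes), with 3 members at an unadjusted p under 0.05 and 0 higher and 1 lower by DESeq2. The lower member was PSMD2, at 844, 827 and 833 TPM in the p65 line and 1006, 915 and 1024 TPM in the VP64 line. Its log2 fold change of -0.198 (SE 0.045) had an adjusted p of 0.0198. That call was lost without library A or C of the VP64 line (adjusted p = 0.0889 and 0.0836), without library A or B of the p65 line (0.116 and 0.072) and with the effective-length offset (0.128). The log2 fold changes of the 5 inducible genes lay between -0.03 and 0.036.

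With guides, 3 of 47 members were higher in the p65 line (3.72% of all genes) and 0 lower (4.2% of all genes) by edgeR, with 10 members at an unadjusted p under 0.05 and 4 higher and 0 lower by DESeq2. PSME2 was higher in the p65 line with a log2 change of 0.15 (SE 0.041, adjusted p = 0.0213), and its libraries did not overlap between the lines (345 to 350 TPM against 295 to 322 TPM). PSME3 was higher by 0.16 (SE 0.04, adjusted p = 0.0167), with 179 to 199 TPM against 159 to 172 TPM. PSMG1 was higher by 0.27 (SE 0.066, adjusted p = 0.0134), with 53.1 to 59.4 TPM against 42.4 to 51.9 TPM. All 3 calls were lost without library C of the VP64 line with guides, when only these libraries were fitted, and with the effective-length offset. PSME2 was also lost without library A of either line or B of the p65 line, PSME3 without library B of the VP64 line or C of the p65 line, and PSMG1 without library B of either line. PSMB9 had a log2 change of -0.183 (SE 0.075, adjusted p = 0.158) and was called lower without library C of the VP64 line (-0.261, adjusted p = 0.0391). For PSMB10 the value was -0.258 (SE 0.114, adjusted p = 0.196), for PSMB8 -0.096 (SE 0.06, adjusted p = 0.399) and for PSME1 0.011 (SE 0.052, adjusted p = 0.944). Of the 24 partner genes 3 were higher in the p65 line with guides, UBQLN4, ECPAS and NFE2L1, by 0.20, 0.14 and 0.12 on the log2 scale, and of the 16 antigen-processing genes 2, TAP2 (0.17) and B2M (0.12). Without guides none of either list was called by edgeR.

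The lines without guides were then compared with the control line, which shows how the members stood when the activation domains were present and no guide was. Both comparisons use the same 3 control libraries, and each shares the libraries without guides with the guide comparison of its line, so the values are given side by side. In the VP64 line 11 of 47 members were higher than in the control line (23.4%) against 23.6% of all genes, and 16 were lower (34.0%) against 24.0% of all genes. For the p65 line 10 were higher (21.3%) against 24.7% of all genes, and 17 were lower (36.2%) against 24.9% of all genes. With the effective-length offset the lower members numbered 8 and 9, and without library B of the VP64 line the 16 came to 10. Of all genes tested, 745 and 864 were both called and changed by 2-fold or more, and no member changed by as much. The median size of the log2 fold change was 0.12 for members in both comparisons, against 0.243 and 0.25 for all genes. Of the 5 inducible genes 2 were higher and 1 lower in each comparison.

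PSMB8 was higher than in the control line in both lines. The control libraries stood at 68.6, 66.0 and 63.6 TPM, below all 6 libraries of the other lines without guides. The log2 fold change was 0.20 (SE 0.06, adjusted p = 0.00809) in the VP64 line and 0.17 (SE 0.059, adjusted p = 0.0207) in the p65 line. The call in the VP64 line was lost with the effective-length offset (adjusted p = 0.0541). That in the p65 line was lost with the offset (0.0944), without library C of the control line (0.0956) and without library A or C of the p65 line (0.0539 and 0.0504). PSMB9, at 48.6, 51.2 and 55.2 TPM in the control line, overlapped both lines and had log2 fold changes of 0.069 (SE 0.08, adjusted p = 0.514) and 0.047 (SE 0.08, adjusted p = 0.66). PSMB10 was lower in both lines than in the control line, which stood at 37.9, 37.1 and 30.4 TPM. Its log2 fold changes were -0.42 (SE 0.113, adjusted p = 0.00394) and -0.39 (SE 0.112, adjusted p = 0.00666), while in TPM the VP64 libraries (25.3 to 28.5) lay below the control libraries and the p65 libraries (24.8 to 34.3) overlapped them. Both PSMB10 calls were lost with the effective-length offset (adjusted p = 0.0501 and 0.214), and that in the p65 line without its library A (0.0582).

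PSME2 was higher in both lines than in the control line, where it stood at 230.0, 204 and 217 TPM, with log2 fold changes of 0.23 (SE 0.042, adjusted p = 0.000122) and 0.23 (SE 0.042, adjusted p = 8.37e-05). No library of the control line reached the lines without guides. PSME1 was not called, with 138, 135 and 144 TPM in the control line and log2 fold changes of -0.1 (SE 0.053, adjusted p = 0.128) and -0.087 (SE 0.053, adjusted p = 0.182). PSME3 stood at 186, 189 and 179 TPM in the control line, below both lines, with log2 fold changes of 0.24 (SE 0.04, adjusted p = 4.35e-05) and 0.31 (SE 0.04, adjusted p = 1.12e-06). PSME4 was higher by 0.19 (adjusted p = 0.00649) and 0.28 (adjusted p = 0.000265), although the VP64 call was lost with the effective-length offset (0.486). PSMF1, the core inhibitor, stood at 107, 129 and 111 TPM in the control line and at 148 to 162 and 147 to 160 TPM in the other lines without guides. Its log2 fold changes of 0.25 and 0.23 (adjusted p = 9.02e-05 and 0.000143) came to 0.41 and 0.38 with the effective-length offset.

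Of the constitutive catalytic genes, PSMB6 was higher in both lines, with 253, 259 and 262 TPM in the control line and log2 fold changes of 0.15 (SE 0.045, adjusted p = 0.00952) and 0.13 (SE 0.044, adjusted p = 0.0173). The p65 call was lost without library C of the p65 line (adjusted p = 0.0785) and without library A of the control line (0.0596). PSMB5 had log2 fold changes of 0.11 (SE 0.046, adjusted p = 0.0661) and 0.045 (SE 0.046, adjusted p = 0.447), and PSMB7 had -0.003 (SE 0.038, adjusted p = 0.955) and -0.044 (SE 0.038, adjusted p = 0.359). PSMB5 in the VP64 line passed the test by DESeq2 (adjusted p = 0.0439) and when only the libraries compared were fitted (0.00798), with no filter on low counts (0.0335) and without library B of the control line (0.0436). The alpha-ring calls were all decreases, PSMA1, PSMA3 and PSMA4 in the VP64 line and PSMA1 and PSMA5 in the p65 line, and PSMB4 was lower in both. Of these, PSMA4 and PSMB4 in the VP64 line lost their calls in all 6 fits that left out 1 library, PSMA1 in the p65 line in 4 and PSMB4 in the p65 line in 2 (without library B of the p65 line or C of the control line). With the effective-length offset PSMA3, PSMA4 and PSMB4 in the VP64 line lost their calls (adjusted p = 0.061, 0.221 and 0.0953). In the p65 line PSMA1 and PSMA5 lost theirs with the offset (0.131 and 0.25).

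Of the 4 genes of 20S assembly chaperones, 3 were lower in the VP64 line and 4 in the p65 line without guides than in the control line. Over all genes tested, 24.0% and 24.9% were lower in these comparisons. The 4 PSMG genes summed to 301.1 TPM in the control line and to 248 and 244 TPM in the VP64 and p65 lines without guides. PSMG1 stood at 84.3, 87.4 and 94.4 TPM in the control line, above every other library, and had log2 fold changes of -0.36 (SE 0.06, adjusted p = 3.66e-05) and -0.34 (SE 0.06, adjusted p = 6.98e-05). PSMG2 stood at 86.3, 82.9 and 86.4 TPM in the control line against 62.9 to 72.5 and 68.7 to 70.6 TPM, with a log2 fold change of -0.35 in both comparisons (SE 0.056, adjusted p = 2.52e-05 and 2.19e-05). PSMG3 stood at 90.5, 87.1 and 92.0 TPM in the control line against 73.8 to 78.1 and 73.5 to 78.8 TPM, with log2 fold changes of -0.27 (SE 0.067, adjusted p = 0.00185) and -0.3 (SE 0.067, adjusted p = 0.000805). For these 3 genes the control libraries did not overlap the others. PSMG4 was lower in the p65 line (-0.45, SE 0.091, adjusted p = 0.000309) and was not called in the VP64 line, where the log2 fold change was -0.164.

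**Figure D4:**
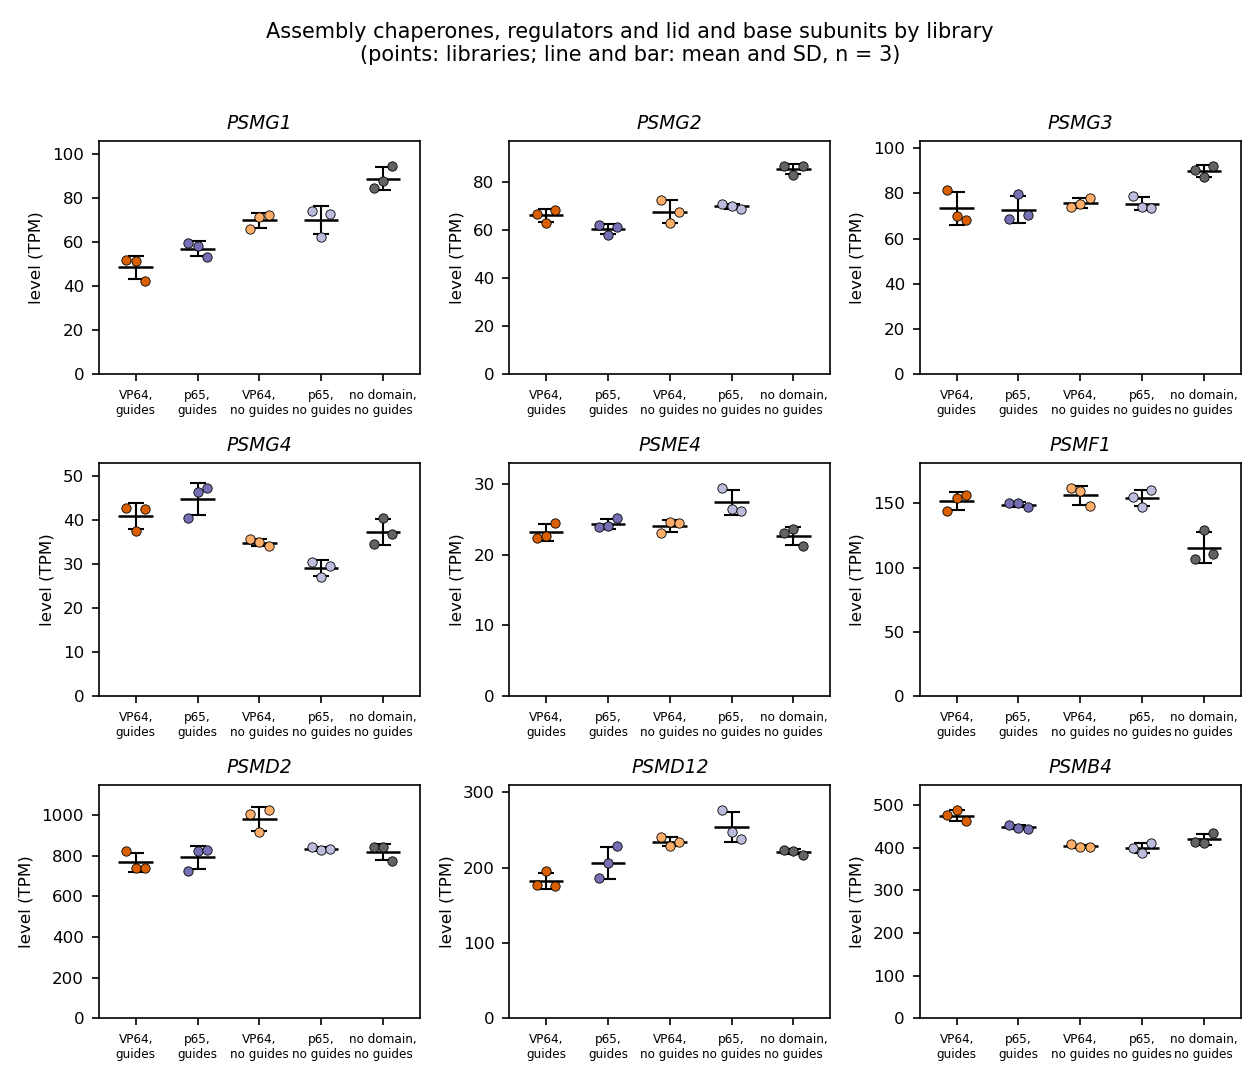
TPM of PSMG1, PSMG2, PSMG3, PSMG4, PSME4, PSMF1, PSMD2, PSMD12 and PSMB4 by group, with points for libraries and lines and bars for the mean and SD of 3 libraries. PSMG1 is highest in the control line (84.3 to 94.4 TPM) and lowest in the VP64 line with guides (42.4 to 51.9 TPM), and PSMD2 is highest in the VP64 line without guides (915 to 1024 TPM).

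In the 19S particle the calls against the control line went in both directions. PSMC4 (RPT3) was higher in both lines, with 235 to 245 TPM in the control line against 268 to 279 and 268 to 292 TPM, by log2 fold changes of 0.17 and 0.19 (adjusted p = 0.00278 and 0.000879). PSMC2, PSMC5 and PSMC6 were lower in both, with log2 fold changes for PSMC6 of -0.226 and -0.178 (adjusted p = 0.00111 and 0.00688), and PSMC1 was lower in the p65 line. With 1 library left out, PSMC2 lost its call in 6 and 5 of the 6 fits and PSMC5 in 4 and 5, and PSMC6 lost that in the p65 line without library B of the p65 line or C of the control line. With the effective-length offset PSMC5 lost both calls (adjusted p = 0.0762 and 0.201) and PSMC6 that in the p65 line (0.147). PSMD4, a ubiquitin receptor of the 19S particle, stood at 243, 239 and 235 TPM in the control line, above all libraries of both lines without guides (198 to 217 and 204 to 215 TPM), and fell by 0.26 and 0.23 (adjusted p = 5.93e-05 and 0.000201). PSMD7, a lid subunit, was lower by 0.25 and 0.23 (adjusted p = 3.49e-05 and 6.81e-05), although in the p65 line its TPM values overlapped those of the control line (131 to 140.0 TPM against 139.5 to 143.8 TPM) and the effective-length offset gave -0.105 (adjusted p = 0.126). PSMD11, a lid subunit, was higher by 0.12 in the VP64 line (adjusted p = 0.00866), which the effective-length offset made 0.33, and by 0.098 in the p65 line (adjusted p = 0.0279), where 3 of 6 such fits lost the call. PSMD12 was higher in the p65 line by 0.20 (adjusted p = 0.00216), a call lost with the effective-length offset (0.0723), and had 0.12 (adjusted p = 0.0551) in the VP64 line. PSMD10, a base chaperone also known as gankyrin, was higher by 0.18 in the VP64 line (adjusted p = 0.0287) and by 0.21 in the p65 line (adjusted p = 0.0113). The call in the VP64 line was lost without library A or C of the VP64 line or B of the control line, and that in the p65 line without library A of the p65 line (0.068) or B of the control line (0.0769). PSMD2 was higher in the VP64 line by 0.20 (adjusted p = 0.000903) and had 0.003 (adjusted p = 0.968) in the p65 line.

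**Figure D5:**
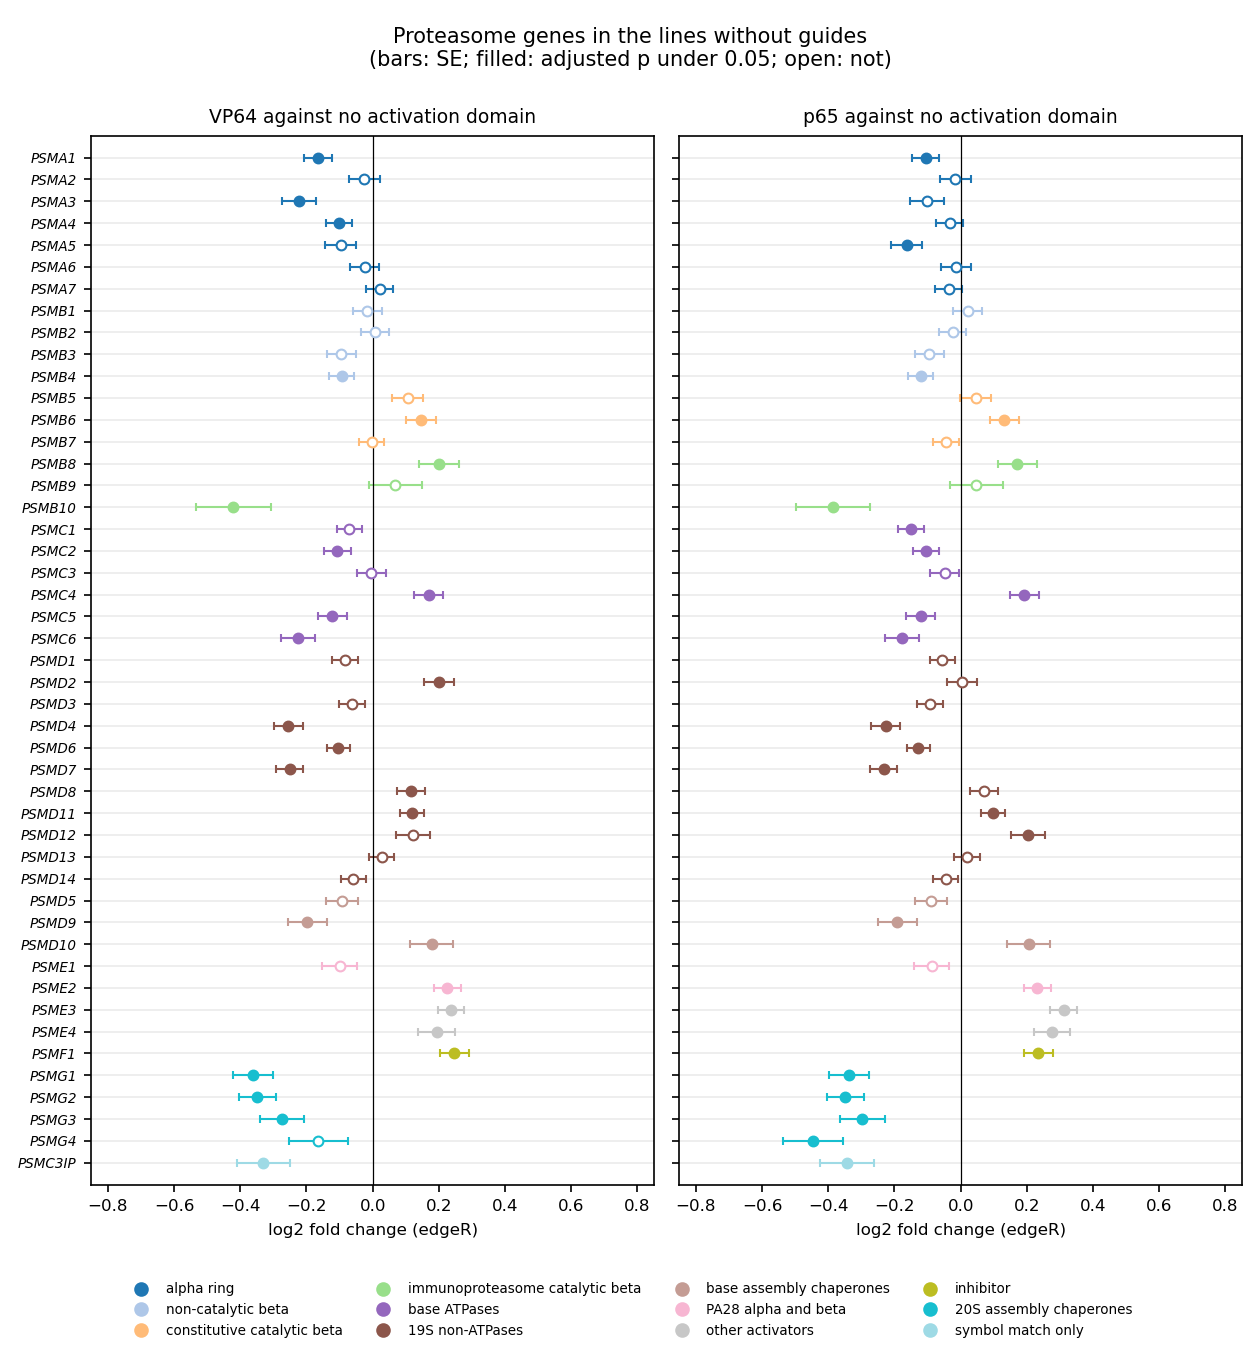
Log2 fold change of the VP64 and p65 lines without guides against the control line for each of the 47 tested members, with bars for the SE and filled points for an adjusted p under 0.05. In the VP64 line 11 members are higher and 16 lower, and in the p65 line 10 are higher and 17 lower, with PSMG1, PSMG2 and PSMG3 among the lowest.

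Partner genes in these comparisons again went both ways: 4 of 24 were higher and 8 lower in the VP64 line (16.7% and 33.3%, against 23.6% and 24.0% of all genes), and 6 higher and 5 lower in the p65 line (25.0% and 20.8%, against 24.7% and 24.9%). NFE2L1, the transcription factor that raises proteasome genes when proteasome activity is low, was higher in both, by log2 fold changes of 0.42 (SE 0.037, adjusted p = 6.46e-09) and 0.34 (SE 0.037, adjusted p = 1.28e-07). TXNL1, a thioredoxin-like protein that binds the 19S particle, was lower by 0.23 (adjusted p = 0.000198) and 0.22 (adjusted p = 0.000383). Of the 16 genes of antigen processing and interferon signalling, 6 were higher and 3 lower in the VP64 line (37.5% and 18.8%), and 6 higher and 4 lower in the p65 line (37.5% and 25.0%). TAP1, a subunit of the peptide transporter whose gene overlaps PSMB9, was higher by 0.38 (adjusted p = 1.01e-06) and 0.35 (adjusted p = 3.35e-06), and B2M by 0.24 (adjusted p = 3.41e-06) and 0.27 (adjusted p = 8.04e-07). The leukocyte marker genes moved with these comparisons: 3 of 4 tested were lower in the VP64 line and 4 of 4 in the p65 line. Of 8 melanocyte lineage markers tested, 1 was higher and 4 were lower in the VP64 line, and 0 were higher and 3 lower in the p65 line. Among 3 fibroblast markers tested 1, LUM, was higher in each line and 0 were lower. The part of these markers in the values above was not tested.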

How the data were processed

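Per the submitters' processing notes, reads were handled with STAR and RSEM on hg38; no versions or strand settings were found in the labels or files. The authors' deposited files give, per gene, an RSEM expected count, the TPM and the effective length in bases. All 58721 gene identifiers match GENCODE 29, and 92 spike-in entries were left out. Here expected counts were rounded and tested with edgeR 4.0.16 (limma 3.58.1, R 4.3.3): TMM factors of 0.983 to 1.014, filterByExpr with a minimum count of 10, 14961 genes, 1 coefficient per group over 15 libraries, 10 residual degrees of freedom, quasi-likelihood F tests, and Benjamini-Hochberg adjustment over all genes in each of 7 comparisons at 0.05. The typical biological coefficient of variation was 5.45%. The fold changes are from counts, and the levels and shares from the deposited TPM. The fit was tested on simulated data.

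The members and gene lists were chosen with earlier results of these data known. Named genes were the 5 inducible genes and PSMB5, PSMB6, PSMB7 and PSME3, the 5 further members with the smallest p in each direction, and up to 3 genes of each list. PSMA3, PSMA5, PSMG2, PSMG4, PSMF1, PSMD5, PSMC3IP and others outside the rule were named after their values were seen. Alternatives were DESeq2 1.42.0 and its size factors, other filters, an offset for the effective length, only the libraries compared, a replicate block, and leaving out each library. Some genes of the marker and partner lists are counted but not reported here by name.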

Additional observations from a re-analysis of the deposited data

How the results depend on the processing

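Of the counts of called members under the alternatives, 172 stayed within 1.5 times the reported count and 22 did not. Leaving out 1 library gave 8 to 13 lower members with guides in the VP64 line, 5 to 10 lower in the p65 line, 10 to 12 lower in the VP64 line against the control line, 0 to 1 lower for p65 against VP64 without guides, 0 to 3 higher and 0 to 1 lower with guides, and 0 to 1 higher for the difference of the guide effects. The lowest of the guide counts came without library A of the VP64 line without guides (8), library C of the VP64 line with guides (9) and library B of the p65 line with guides (5), and the lowest against the control line without library B of the VP64 line (10). With the effective-length offset, 8 (VP64) and 9 (p65) members were lower against the control line, and 0 differed between p65 and VP64 with or without guides. Fitting only the libraries compared also gave 0 higher for p65 against VP64 with guides. A filter of a mean of at least 1 CPM gave 10 higher with guides in the p65 line. No filter on low counts and DESeq2 each gave 1 higher (PSMD2) for the difference of guide effects. Why these values moved was not tested beyond the smaller number of libraries or genes.

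Without length scaling, the beta1 shares were 20.53, 18.31, 14.26, 14.21 and 14.91% (VP64 and p65 with guides, VP64 and p65 without, control), the beta2 shares 4.696, 3.942, 3.55, 3.727 and 4.695%, and the PA28 shares 53.29, 52.23, 40.9, 39.78 and 43.39%.

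Values that turned direction were all uncalled. With the offset PSMB10 had -0.163 with guides in the p65 line and PSME1 -0.004 for p65 against VP64 with guides. PSMB7 in the VP64 line against the control line had 0.004 with DESeq2 or its size factors, 0.014 with no filter, 0.002 with the offset, 0.006 with only the libraries compared and -0.019 to 0.03 when 1 library was left out. PSME1 had a difference of guide effects of 0.005 with DESeq2 or its size factors. Leaving out 1 library gave -0.004 to 0.093 for PSMB5 in the p65 line against the control line. For p65 against VP64 without guides it gave -0.064 to 0.009 for PSMB9, -0.071 to 0.139 for PSMB10, -0.019 to 0.043 for PSME1, -0.016 to 0.04 for PSME2 and -0.049 to 0.023 for PSMB6. With guides it gave -0.03 to 0.082 for PSME1, -0.001 to 0.049 for PSMB6 and -0.004 to 0.037 for PSMB7, and for the difference of guide effects -0.104 to 0.007 for PSMB8 and -0.044 to 0.068 for PSME1.

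Same-lettered libraries showed little shared deviation (r from -0.14 to 0.136 over 30 pairs, 1 of them over 0.1), and the reported fit did not pair samples by letter. The labels give no shared culture or day for the letters, and such weak correlations cannot exclude one. With the letter as a replicate block, 6 members were higher and 13 lower with guides in the VP64 line, and 6 higher and 8 lower in the p65 line. Against the control line the block gave 11 higher and 14 lower members for VP64 and 10 higher and 16 lower for p65, and it moved no other count of called members by over 1.5 times. With 3 libraries a line and 10 residual degrees of freedom, small differences were uncertain, and not only in genes of few counts. The PSMB10 calls were lost with the effective-length offset, whereas the PSMG4 calls were kept with it and in every fit that left out 1 library. PSMC1, with 1625 to 2205 counts in the libraries compared, lost its guide call in the VP64 line in all 6 such fits.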
